A study of Rattus norvegicus with 9 samples.

Results

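The 9 genes described here encode fibronectin (Fn1), tenascin-C (Tnc), tenascin-N (Tnn), thrombospondins 1 to 3 (Thbs1, Thbs2, Thbs3), the collagen-binding protein SPARC or osteonectin (Sparc), periostin (Postn) and the large proteoglycan versican (Vcan). They were taken by symbol from a table of 17588 genes, in which all 9 were found once, and all 9 passed the filter on low values described below. The messenger RNA of rat primary chondrocytes of wild-type genotype, the cells that make cartilage matrix, was sequenced in 9 libraries. These form 3 groups of 3. In the co-culture group the chondrocytes received IL-1β (interleukin-1β), an inflammatory cytokine that drives cartilage matrix loss, and then shared a transwell with dermal fibroblasts, which lay in the upper chamber above them. The IL-1β group received the cytokine in ordinary culture without fibroblasts, and the control group was kept in ordinary culture without either. All groups share the same cell source and a medium with fetal bovine serum and an insulin, transferrin and selenium supplement. Neither the labels nor the design text state the age and sex of the rats, the IL-1β dose and time or how long the co-culture lasted. They also do not say whether replicates are independent cultures, and the spread behind each p-value may therefore be technical.

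Matricellular proteins are secreted into the matrix around cells, where most of them regulate how cells attach and signal more than they bear load. Fibronectin is assembled by cells into fibrils that serve as a scaffold for other matrix proteins, and tenascins, thrombospondins, periostin and SPARC bind to it, to collagens or to cell surface receptors. Versican is a hyaluronan-binding chondroitin sulfate proteoglycan that is typical of loose and provisional matrix, whereas aggrecan takes that place in mature cartilage. In cartilage some of these genes, but not every one, are known to be high in development, in dedifferentiating cultured chondrocytes or in damaged tissue.

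Levels are in FPKM, a measure that corrects read fragments for gene length and library size. It is meant to let levels of different genes be set beside each other. How far it does so here is unknown, since the genome build behind the values was not settled. The library sums of FPKM lay between 809839 and 811665 in co-culture, between 796262 and 832248 in IL-1β and between 771058 and 782435 in control libraries, and the absolute depth behind them is unknown. Pearson's r between libraries across the 11732 tested genes, which are not independent replicates, was 0.994 to 0.995 within groups and as low as 0.961 between groups. The chondrocyte label was checked against 15 markers, of which 14 were in the table and all 14 passed the filter. Their summed level was 679.5 to 740.1 FPKM in co-culture, 493 to 515 FPKM in IL-1β and 2088 to 2175 FPKM in control libraries. Col2a1 alone averaged 250 FPKM in co-culture, 168 FPKM in IL-1β and 1042 FPKM in control libraries, and Matn1 averaged 0.747, 0.613 and 3.84 FPKM. By the test described below, all 14 were called lower with IL-1β against control, beside 20.2% of all tested genes. With co-culture against IL-1β 11 of the 14 were called higher, beside 11.9%. The cultures also carried muscle transcripts: all 10 listed skeletal muscle markers passed the filter, and their sum was 401 to 446 FPKM in co-culture, 411 to 434 FPKM in IL-1β and 188 to 193 FPKM in control libraries. All 10 were called higher with IL-1β against control, beside 26.5% of all tested genes. With co-culture against IL-1β 1 of the 10 (Acta1) was called, as lower, beside 10.1% of all tested genes called lower and 11.9% called higher. In bulk RNA of this kind fewer cells of a type and less RNA per cell cannot be told apart.

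With IL-1β against control, 3 of the 9 genes rose (Vcan, Fn1 and Postn), 5 fell (Thbs2, Thbs1, Sparc, Tnc and Thbs3) and Tnn was not called. Vcan was 1.58-fold and Fn1 1.33-fold higher, whereas Thbs2 was 2.07-fold and Thbs1 1.65-fold lower. With co-culture against IL-1β alone, Thbs2, Thbs1 and Tnc rose (1.34-fold, 1.22-fold and 1.19-fold), Postn and Fn1 fell (1.19-fold and 1.14-fold), and 4 genes were not called. With co-culture against control, Vcan and Fn1 were higher, 5 genes (Thbs2, Sparc, Thbs1, Tnc and Thbs3) were lower, and Tnn and Postn were not called. A gene was called at a Benjamini-Hochberg adjusted p under 0.05 in limma, fitted to all 11732 genes with at least 1 FPKM in at least 3 of the 9 libraries. These 3 comparisons share groups, so their values stand side by side and do not support each other.

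The background in these comparisons was high. With IL-1β against control 46.7% of all tested genes were called, 26.5% higher and 20.2% lower, beside 8 of the 9 genes. With co-culture against IL-1β the share was 22.0%, with 11.9% higher and 10.1% lower, beside 5 of the 9, and with co-culture against control it was 33.9%, with 21.8% higher and 12.2% lower, beside 7 of the 9. The median log2 difference of the 9 genes was -0.31, 0.08 and -0.22 in these 3 comparisons, and that of all tested genes was 0.02, 0.02 and 0.04. The direction of calls depended on scaling. The libraries of the compared groups did not overlap for 8, 7 and 7 of the 9 genes, beside 56.4%, 37.6% and 46.5% of all tested genes. After rescaling each library to the same FPKM sum, the genes called with IL-1β against control were 2249 higher and 3188 lower, against 3109 and 2370 as deposited, and with co-culture against control they were 1541 and 2009, against 2554 and 1427. Between co-culture and IL-1β the split turned with median-of-ratios scaling, to 1156 higher and 1294 lower, against 1393 and 1188 as deposited, and the 9 genes became 3 higher and 3 lower with that scaling and with quantile normalization, Vcan being called lower. Among the 9 genes the split with IL-1β against control became 2 higher and 6 lower with a common sum or quantile normalization, since Postn lost its call and Tnn was called lower. With co-culture against control the split of the 9 genes was 2 higher and 5 lower as deposited. It became 2 higher and 6 lower with a common sum or median-of-ratios scaling, and 1 higher and 6 lower with quantile normalization.

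**Figure D1:**
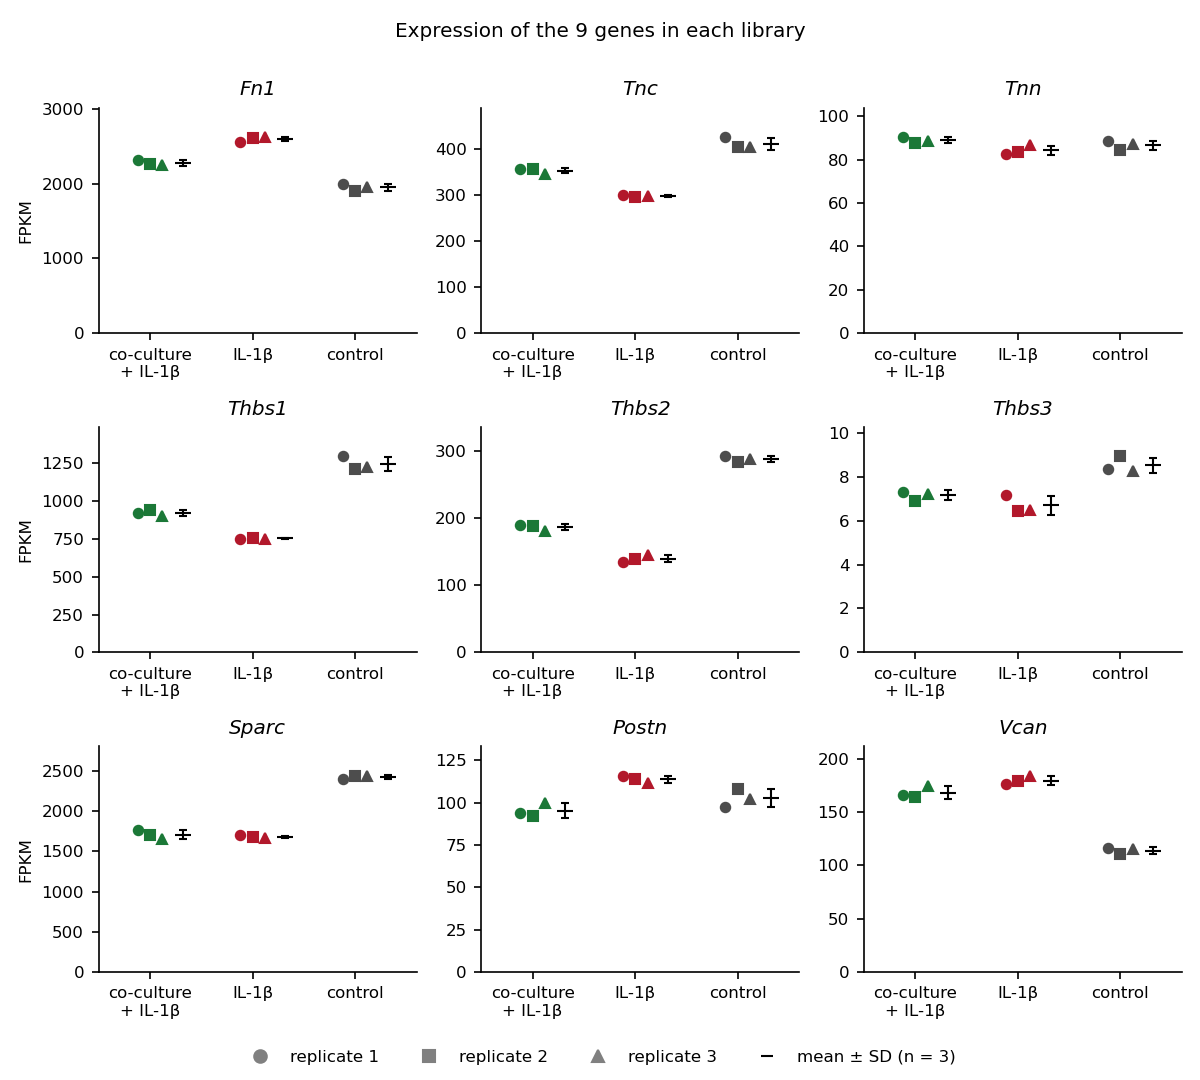
FPKM of each of the 9 genes (vertical axes from 0) in the 3 libraries of each group, with markers for the replicates and a bar for the mean ± SD. Thbs2 lies at 134 to 144 FPKM in IL-1β libraries, below co-culture at 181 to 190.1 and control at 284 to 292, while Vcan and Fn1 are lowest in control libraries.

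Fibronectin, the fibril-forming glycoprotein to which cells attach through integrins, was among the most abundant transcripts of these cells, and its mean ranked 62 among all tested genes in co-culture, 54 in IL-1β and 70 in control libraries. Fn1 (gene 25661) was at 2324, 2271 and 2249 FPKM in the co-culture libraries, 2568, 2615 and 2630 FPKM in the IL-1β libraries and 1997, 1909.5 and 1960.2 FPKM in the control libraries. The 3 groups did not overlap: IL-1β libraries were highest, co-culture libraries lay between, and control libraries were lowest. The means were 2281 ± 38.5 FPKM in co-culture, 2604 ± 32.4 FPKM in IL-1β and 1956 ± 43.9 FPKM in control libraries (SD, n = 3 each, as in all means ± SD here). On the log2(FPKM + 1) scale Fn1 rose by 0.41 ± 0.03 (SE) with IL-1β against control (adjusted p = 8.18e-07). It fell by 0.19 ± 0.03 with co-culture against IL-1β (adjusted p = 0.000776). It was 0.22 ± 0.03 higher with co-culture against control (adjusted p = 0.000155), a call that ended with quantile normalization (0.12, adjusted p = 0.0638), which also lowered the rise with IL-1β to 0.28 (adjusted p = 0.000711). The values are for the gene as a whole, so spliced forms of fibronectin with and without the extra domains were not told apart.

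The tenascins are multi-armed glycoproteins that loosen the adhesion of cells to fibronectin. Tenascin-C is known from developing and injured tissue, and tenascin-N, also called tenascin-W, mainly from bone and its surroundings. Tnc (gene 116640) was at 358, 356 and 347 FPKM in co-culture, 299.9, 295 and 299 FPKM in IL-1β and 427, 404 and 405 FPKM in control libraries. No 2 groups overlapped, with control highest and IL-1β lowest. Tnc fell by 0.47 ± 0.03 log2 with IL-1β against control (adjusted p = 4.35e-07) and rose by 0.25 ± 0.03 with co-culture against IL-1β (adjusted p = 0.000188). With co-culture against control it was 0.22 ± 0.03 lower (a difference of -0.22, adjusted p = 0.000212). Tnn (gene 304913) stood in a narrow band, at 90.4, 87.8 and 88.4 FPKM in co-culture, 82.5, 83.5 and 86.7 FPKM in IL-1β and 88.4, 84.4 and 87.3 FPKM in control libraries. The IL-1β libraries overlapped the control libraries, and the co-culture libraries lay just above the IL-1β libraries. The differences of Tnn were -0.04 with IL-1β against control (95% interval -0.11 to 0.03, adjusted p = 0.298), 0.08 with co-culture against IL-1β (0.01 to 0.14, adjusted p = 0.102) and 0.04 with co-culture against control (-0.03 to 0.10, adjusted p = 0.408). The first passed as a fall with libraries rescaled to a common sum (-0.11, adjusted p = 0.0383) and with quantile normalization (-0.10, adjusted p = 0.0323).

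Thrombospondins 1 and 2 form trimers that bind the receptors CD47 and CD36, and thrombospondin 1 can activate latent TGF-β, while thrombospondin 3 belongs with thrombospondin 4 and COMP to the pentamer-forming branch. Thbs2 (gene 292406) had the largest changes of the 9 genes in each of the 3 comparisons. It was at 190.1, 189 and 181 FPKM in co-culture, 134, 139.8 and 144 FPKM in IL-1β and 292, 284 and 288 FPKM in control libraries. The groups did not overlap, and the mean was 187 ± 4.71 FPKM in co-culture, 139 ± 5.12 FPKM in IL-1β and 288 ± 3.85 FPKM in control libraries. Thbs2 fell by 1.04 ± 0.03 log2 with IL-1β against control (adjusted p = 3.17e-09), rank 136 by p among all tested genes. It rose by 0.42 ± 0.03 with co-culture against IL-1β (adjusted p = 1.6e-05), rank 146, and its difference from control in co-culture was -0.62 ± 0.03 (adjusted p = 3.24e-07).

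Thbs1 (gene 445442) is the more abundant of the pair, at 919.6, 943 and 899.6 FPKM in co-culture, 753, 759 and 749.8 FPKM in IL-1β and 1296, 1209 and 1223 FPKM in control libraries. The groups stood in the same order as for Thbs2 and did not overlap. Thbs1 fell by 0.72 ± 0.03 log2 with IL-1β against control (adjusted p = 3.78e-08) and rose by 0.29 ± 0.03 with co-culture against IL-1β (adjusted p = 0.00015). Against control its difference in co-culture was -0.43 ± 0.03 (adjusted p = 3.86e-06). Thbs3 (gene 681309) was the lowest of the 9, at 7.32, 6.90 and 7.23 FPKM in co-culture, 7.18, 6.42 and 6.46 FPKM in IL-1β and 8.35, 8.92 and 8.26 FPKM in control libraries. Control libraries were above the others, and co-culture and IL-1β libraries overlapped. Thbs3 fell by 0.31 ± 0.06 log2 with IL-1β against control (adjusted p = 0.00121) and was lower by the same test with co-culture against control (-0.22 ± 0.06, adjusted p = 0.0116). With co-culture against IL-1β its difference was 0.09 (95% interval -0.04 to 0.21, adjusted p = 0.306).

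Sparc (gene 24791), a collagen- and calcium-binding glycoprotein, had the second highest level of the 9 in co-culture and IL-1β libraries and the highest in control libraries. It was at 1772, 1701 and 1661 FPKM in co-culture, 1699.7, 1679 and 1663 FPKM in IL-1β and 2397, 2439 and 2443 FPKM in control libraries. Control libraries were higher than all others, and the co-culture and IL-1β libraries overlapped. Sparc fell by 0.53 ± 0.03 log2 with IL-1β against control (adjusted p = 2.02e-07), and its difference from control in co-culture was -0.50 ± 0.03 (adjusted p = 6.29e-07). Between co-culture and IL-1β the difference was 0.03, with a 95% interval of -0.04 to 0.09 (adjusted p = 0.573).

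Periostin is a secreted adhesion protein of fibrous tissues and periosteum that binds integrins and collagen. Postn (gene 361945) was at 93.7, 92.05 and 100.1 FPKM in co-culture, 116, 114 and 111 FPKM in IL-1β and 97.5, 108 and 102 FPKM in control libraries. IL-1β libraries were above all others, and co-culture libraries overlapped control libraries. Postn fell by 0.25 ± 0.04 log2 with co-culture against IL-1β (adjusted p = 0.00257), the call on Postn that held in all alternatives tried. Its rise with IL-1β against control was 0.15 ± 0.04 (adjusted p = 0.0183). It was no longer called with a common sum (0.08, adjusted p = 0.131), with quantile normalization (0.09, adjusted p = 0.115), without control replicate 1 (0.11, adjusted p = 0.0698) and without IL-1β replicate 1 (0.13, adjusted p = 0.0596). With co-culture against control its difference was -0.11 (95% interval -0.20 to -0.01, adjusted p = 0.0887). It passed as a fall with a common sum (-0.17, adjusted p = 0.0111), median-of-ratios scaling (-0.15, adjusted p = 0.0276), quantile normalization (-0.18, adjusted p = 0.0105), without control replicate 1 (-0.14, adjusted p = 0.0394) and without co-culture replicate 3 (-0.14, adjusted p = 0.0392).

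Versican binds hyaluronan together with link protein and is cut by ADAMTS proteases. Vcan (gene 114122) was at 166, 164 and 175 FPKM in co-culture, 176, 179 and 184 FPKM in IL-1β and 116, 110.5 and 115 FPKM in control libraries. The control libraries were clearly below the others, and the highest co-culture library was just below the lowest IL-1β library. Vcan rose by 0.65 ± 0.03 log2 with IL-1β against control (adjusted p = 1.44e-07), the largest rise among the 9. With co-culture against control it was 0.56 ± 0.03 higher (adjusted p = 9.72e-07). Between co-culture and IL-1β its difference was -0.09 (95% interval -0.17 to -0.02) and did not pass (adjusted p = 0.0759). It passed with median-of-ratios scaling (-0.11, adjusted p = 0.0424), with quantile normalization (-0.12, adjusted p = 0.0406) and without co-culture replicate 3 (-0.12, adjusted p = 0.0369).

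**Figure D2:**
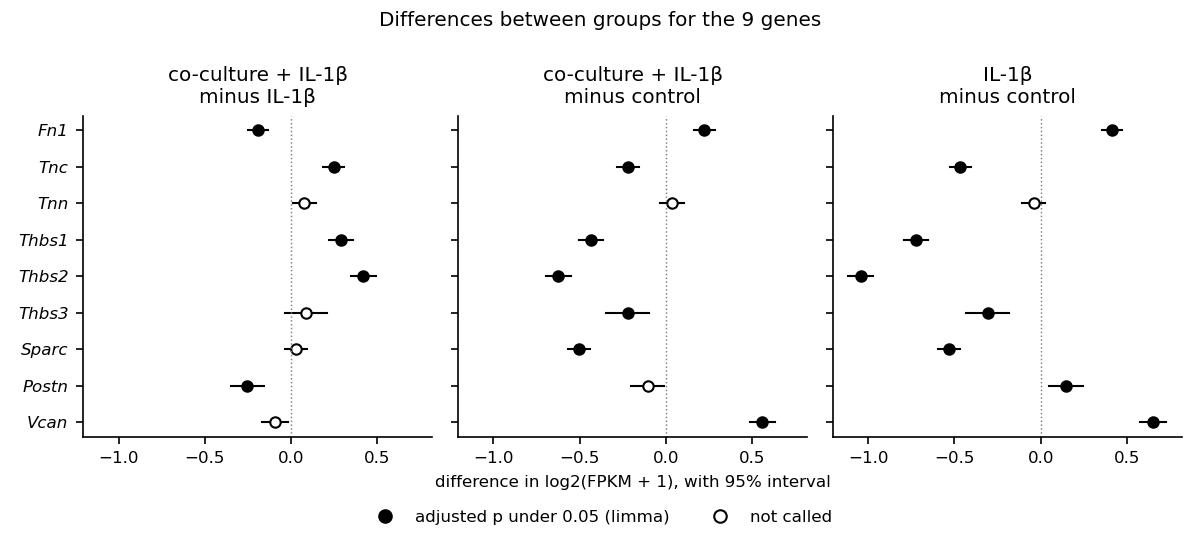
Differences in log2(FPKM + 1) for the 9 genes (horizontal axes, with 95% intervals) in the 3 comparisons, filled points being called at an adjusted p under 0.05 in limma. Thbs2 is farthest from 0 in each panel, at 0.42 in the first, -0.62 in the second and -1.04 in the third, and Tnn is open in all 3.

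The order of the genes by level changed between groups. In co-culture and in IL-1β libraries Fn1 was highest and Sparc next, while in control libraries Sparc was highest (2427 ± 25.4 FPKM) and Fn1 next. Vcan stood above Thbs2 in IL-1β libraries, where Vcan averaged 179.8 ± 4.11 FPKM, whereas Thbs2 stood above Vcan in co-culture, where Vcan averaged 169 ± 5.73 FPKM, and in control libraries, where Vcan averaged 114 ± 3.09 FPKM. No neighbours in the order overlapped in any group. The closest were Postn and Tnn in co-culture, with a ratio of means of 1.07, Thbs2 and Vcan in co-culture (1.11) and Vcan and Postn in control libraries (1.11). Summed over the 9 genes the level was 5709 to 5922 FPKM in co-culture, 5836 to 5875 FPKM in IL-1β and 6558 to 6719 FPKM in control libraries.

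Multiplying a library by a constant leaves ratios of members within it as they are, while quantile normalization, which moves genes by different amounts, does not. Ratios were taken for 8 pairs of members on the deposited values, and the plot shows 4 of them, picked after the values were seen. Fn1 over Sparc was 1.31, 1.34 and 1.35 in co-culture, 1.51, 1.56 and 1.58 in IL-1β and 0.833, 0.783 and 0.802 in control libraries. Fn1 over Thbs1 was 2.53, 2.41 and 2.50 in co-culture, 3.41, 3.44 and 3.51 in IL-1β and 1.54, 1.58 and 1.60 in control libraries. For both, IL-1β libraries were highest, co-culture libraries between and control libraries lowest, with no overlap. Vcan over Tnc was 0.464, 0.462 and 0.505 in co-culture, 0.588, 0.606 and 0.617 in IL-1β and 0.272, 0.273 and 0.285 in control libraries, in the same order. Thbs1 over Thbs2 averaged 4.93 ± 0.0830 in co-culture, 5.41 ± 0.209 in IL-1β and 4.31 ± 0.108 in control libraries (SD, n = 3 each), again without overlap. Fn1 over Tnc had this order too, at 6.45 ± 0.0648 in co-culture, 8.74 ± 0.155 in IL-1β and 4.75 ± 0.0810 in control libraries. The other 3 ratios did not have it. Tnc over Tnn was lowest with IL-1β, at 3.98 ± 0.0691 in co-culture, 3.54 ± 0.0963 in IL-1β and 4.75 ± 0.0992 in control libraries. Thbs1 over Sparc was also lowest with IL-1β, at 0.538 ± 0.0180 in co-culture, 0.449 ± 0.00510 in IL-1β and 0.512 ± 0.0245 in control libraries, with co-culture and control overlapping. Fn1 over Postn was 24.0 ± 1.31 in co-culture, 22.9 ± 0.722 in IL-1β and 19.1 ± 1.41 in control libraries, with co-culture and IL-1β overlapping. An exact permutation test of 3 against 3 cannot go below p = 0.1, and these ratios are given as descriptions.

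**Figure D3:**
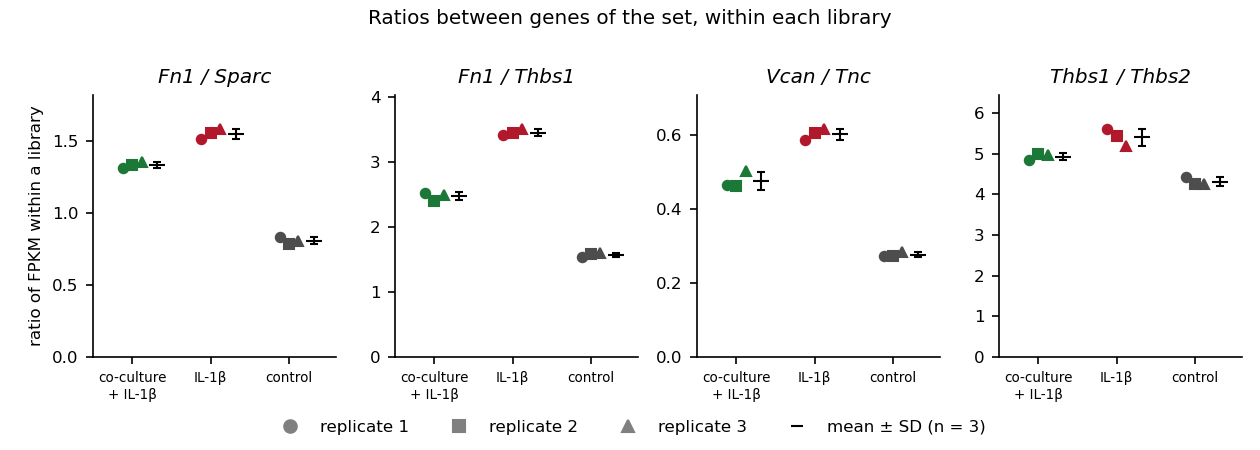
Ratios of FPKM between genes of the set within each library (vertical axes from 0), with markers for the replicates and a bar for the mean ± SD. In the 4 ratios shown, of 8 taken, the IL-1β libraries are highest and the control libraries lowest, as for Fn1 over Sparc at 1.31 to 1.35 in co-culture, 1.51 to 1.58 in IL-1β and 0.783 to 0.833 in control.

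Promoter sequence is shown for 4 genes that behaved differently: Thbs1 and Sparc, which fell with IL-1β, Vcan, which rose, and Tnn, which was not called. The RefSeq promoter table of the rat build GRCr8 had entries for 7 of the 9 genes, those other than Fn1 and Thbs2. The 250 bases before the listed start are printed for the 4 genes, 5′ to 3′ on the gene's strand, and for Vcan those of the first listed window. Capitals mark matches on either strand to TGANTCA (AP-1), the NF-κB consensus with its central bases left free, CATTCC (TEAD) and CAGAC (SMAD).
Thbs1, chr3:125510000-125510249, plus strand: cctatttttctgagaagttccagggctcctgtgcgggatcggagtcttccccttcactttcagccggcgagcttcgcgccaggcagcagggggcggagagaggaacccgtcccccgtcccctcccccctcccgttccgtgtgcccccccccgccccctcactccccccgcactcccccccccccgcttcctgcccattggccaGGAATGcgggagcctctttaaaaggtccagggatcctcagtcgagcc
Sparc, chr10:40038817-40039066, minus strand: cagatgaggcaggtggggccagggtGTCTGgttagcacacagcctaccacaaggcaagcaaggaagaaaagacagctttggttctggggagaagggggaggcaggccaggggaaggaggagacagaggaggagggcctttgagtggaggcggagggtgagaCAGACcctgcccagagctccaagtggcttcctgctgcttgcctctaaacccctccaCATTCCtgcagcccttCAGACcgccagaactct
Vcan, chr2:22595956-22596205, minus strand: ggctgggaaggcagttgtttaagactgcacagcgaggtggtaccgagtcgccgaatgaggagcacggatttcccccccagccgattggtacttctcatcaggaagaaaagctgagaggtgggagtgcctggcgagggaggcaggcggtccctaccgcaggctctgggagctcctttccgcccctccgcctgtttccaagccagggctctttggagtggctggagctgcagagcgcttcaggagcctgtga
Tnn, chr13:74919790-74920039, minus strand: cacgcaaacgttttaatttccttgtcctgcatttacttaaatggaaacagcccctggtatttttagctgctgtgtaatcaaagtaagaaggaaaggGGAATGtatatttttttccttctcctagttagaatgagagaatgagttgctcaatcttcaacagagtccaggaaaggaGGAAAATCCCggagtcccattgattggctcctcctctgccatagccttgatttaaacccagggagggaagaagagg
Thbs1 held 1 TEAD match, 47 bases before the start, Sparc held 1 TEAD match at 33 bases and 3 SMAD matches, and the Vcan window held no match to the 4 motifs. Tnn held 1 NF-κB match (GGAAAATCCC on the gene's strand) at 76 bases and 1 TEAD match at 154 bases. Of the windows not printed, Tnc held 1 SMAD match, Postn 1 SMAD match and Thbs3 none, and Vcan's second listed window none. Over all 33469 windows of the same length in the table, 6.34% held the AP-1 motif, 1.3% the NF-κB motif, 12.1% the TEAD motif and 42.9% the SMAD motif. A match is a run of letters and not a measured binding site.

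Partner genes of the 9 were read from a list of 85, of which 82 were in the table and 73 passed the filter. With IL-1β against control 35 of the 73 rose and 29 fell, beside the 46.7% of all tested genes called. In co-culture against IL-1β 22 rose and 25 fell, beside 22.0%, and with co-culture against control 31 rose and 25 fell, beside 33.9%. The median differences were 0.08, -0.04 and 0.09 log2. These genes were drawn up around the 9 genes with earlier results of these data known.

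Other matricellular and glycoprotein genes had 22 tested members, of which 6 rose and 15 fell with IL-1β against control (median -0.34 log2). Tgfbi, a TGF-β-induced adhesion protein, was at 74.8 ± 2.26 FPKM in IL-1β and 212 ± 1.21 FPKM in control libraries (adjusted p = 2.18e-10). Ctgf, a CCN family protein also known as CCN2, was at 430.5 ± 11.9 FPKM in IL-1β and 1199 ± 11.2 FPKM in control libraries (adjusted p = 8.36e-09). Osteopontin (Spp1) was at 2685 ± 94.4 FPKM in IL-1β and 1424 ± 25.7 FPKM in control libraries (adjusted p = 1.5e-08), the opposite direction. Of the 22, 10 rose and 4 fell with co-culture against IL-1β (median 0.08 log2). Tgfbi was at 116 ± 3.67 FPKM in co-culture and 74.8 ± 2.26 FPKM in IL-1β libraries (adjusted p = 1.32e-06), and the SPARC relative Smoc2 at 70.6 ± 1.83 FPKM in co-culture and 48.8 ± 0.878 FPKM in IL-1β libraries (adjusted p = 5.34e-06). Nov, another CCN protein known as CCN3, was lower, at 20.3 ± 1.19 FPKM in co-culture and 31.0 ± 1.19 FPKM in IL-1β libraries (adjusted p = 0.000143).

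Receptors for these proteins had 18 tested members, of which 9 rose and 7 fell with IL-1β against control (median 0.12 log2). The thrombospondin 1 receptor Cd47 was at 78.3 ± 1.22 FPKM in IL-1β and 44.3 ± 0.998 FPKM in control libraries (adjusted p = 7.18e-08), and the syndecan Sdc2, a cell surface heparan sulfate proteoglycan, at 85.8 ± 1.82 FPKM in IL-1β and 165 ± 2.58 FPKM in control libraries (adjusted p = 4.87e-09). In co-culture against IL-1β 6 receptors rose and 7 fell (median -0.04 log2). Cd36, which binds thrombospondin 1, was at 1.98 ± 0.237 FPKM in co-culture and 5.11 ± 0.430 FPKM in IL-1β libraries (adjusted p = 3.18e-05), and the endocytic receptor Lrp1 at 42.4 ± 0.301 FPKM in co-culture and 55.9 ± 1.44 FPKM in IL-1β libraries (adjusted p = 3.52e-05). The chains of the classical fibronectin receptor, integrin α5β1, were picked after their values were seen. Itga5 was at 87.3 ± 2.51 FPKM in co-culture, 99.7 ± 0.768 FPKM in IL-1β and 87.0 ± 1.10 FPKM in control libraries, and Itgb1 at 539.7 ± 9.78 FPKM in co-culture, 477 ± 7.94 FPKM in IL-1β and 608 ± 3.12 FPKM in control libraries. Itga5 rose and Itgb1 fell with IL-1β against control (adjusted p = 0.000274 and 1.29e-06), and each went the other way with co-culture against IL-1β (adjusted p = 0.00105 and 0.000616).

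Enzymes that cut or cross-link the proteins had 18 tested members. With IL-1β against control 14 rose and 3 fell (median 0.63 log2), and with co-culture against IL-1β 1 rose and 12 fell (median -0.27 log2). The differences with IL-1β against control ran from -0.40 to 6.06 log2, the highest being the matrix metalloproteinase gene Mmp9. With co-culture against IL-1β they ran from -2.38, for the matrix metalloproteinase gene Mmp13, to 0.14 log2. Tissue plasminogen activator (Plat) was at 38.4 ± 2.23 FPKM in co-culture and 77.5 ± 2.48 FPKM in IL-1β libraries (adjusted p = 6.65e-07). Of the 5 tested versican partners, the link protein gene Hapln1 was at 31.0 ± 2.31 FPKM in co-culture, 13.2 ± 1.52 FPKM in IL-1β and 102 ± 1.04 FPKM in control libraries. It fell with IL-1β against control (adjusted p = 9.61e-10), where Vcan rose, and rose with co-culture against IL-1β (adjusted p = 4.83e-06). The hyaluronan synthase gene Has2 rose with Vcan in IL-1β against control, at 37.3 ± 1.13 FPKM in IL-1β and 23.0 ± 0.650 FPKM in control libraries (adjusted p = 2.15e-07).

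Of 10 genes of the TGF-β axis, which is known to induce several of the 9 genes, 4 rose and 3 fell with IL-1β against control (median 0.05 log2), and 3 rose and 2 fell with co-culture against IL-1β (median -0.02 log2). The ligand gene Tgfb3 was at 48.0 ± 2.05 FPKM in co-culture, 33.5 ± 0.254 FPKM in IL-1β and 92.1 ± 0.811 FPKM in control libraries (adjusted p = 5.34e-06 for co-culture against IL-1β and 3.8e-10 for IL-1β against control). The receptor Tgfbr2 was at 57.0 ± 0.998 FPKM in IL-1β and 39.3 ± 1.23 FPKM in control libraries (adjusted p = 1.16e-06). Tgfb2 was at 16.6 ± 0.950 FPKM in co-culture, 13.2 ± 0.999 FPKM in IL-1β and 22.4 ± 0.627 FPKM in control libraries, in the same order as Tgfb3.

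**Figure D4:**
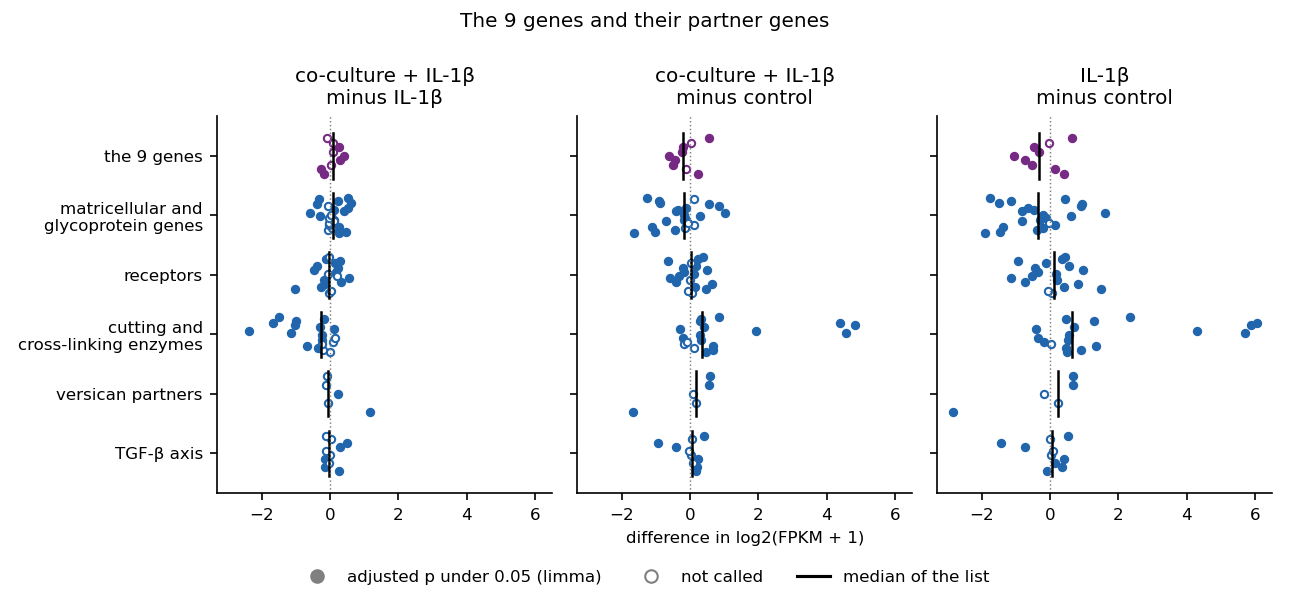
Differences in log2(FPKM + 1) (horizontal axes) of the 9 genes and of 73 tested partner genes by role, in the 3 comparisons, with filled points called at an adjusted p under 0.05 in limma and a bar at each list's median. The cutting and cross-linking enzymes have a median of 0.63 with IL-1β minus control and of -0.27 with co-culture minus IL-1β, while the 9 genes have medians of -0.31 and 0.08.

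The genes whose pattern over the 9 libraries was most like that of each member were sought among 8490 tested genes other than the 9 whose mean reached 5 FPKM in some group and whose symbol was not a placeholder such as a LOC number, using Pearson's r on log2(FPKM + 1) as a measure of likeness. The libraries form 3 groups and the compared genes share them, so r is given as a description. Thbs2 was most like Hapln1 (0.9997), Arf2 (0.999) and the collagen VI chain Col6a3 (0.999), and Thbs1 like the membrane protein gene Emp1 (0.998), aggrecan (Acan, 0.997) and Susd5 (0.997). Tnc was most like the fringe glycosyltransferase Lfng (0.997), the muscle enolase Eno3 (0.993) and Rtn4 (0.993). Fn1 was most like the mitochondrial protein gene Nlrx1 (0.998), the adhesion molecule gene Nectin2 (0.996) and Ehd3 (0.996), and Vcan like Mnda (0.998), the transcription factor gene Twist2 (0.998) and Dclk1 (0.997). Sparc was most like Zcchc3, Ccdc80 and Nupr1 (0.998 each), and Thbs3 like Rnf115 (0.996), apolipoprotein E (Apoe, 0.984) and B3gat3 (0.974). The likeness was weaker for Postn, led by neuropeptide Y (Npy, 0.943), and for Tnn, led by Tor1aip1 (0.926).

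Markers of other cells that express several of the 9 genes were read in the same libraries. Of 11 dermal fibroblast markers 10 were in the table and 5 passed the filter. The summed level of all 10 was 134 to 156 FPKM in co-culture, 232 to 244 FPKM in IL-1β and 95.6 to 104 FPKM in control libraries. With IL-1β against control, where 46.7% of all tested genes were called, Sfrp2 and Twist2 rose, Mfap5 and Dpt fell and Crabp1 was not called. Sfrp2 averaged 63.3 FPKM in co-culture, 152 FPKM in IL-1β and 6.09 FPKM in control libraries, and Mfap5 averaged 25.6 FPKM in co-culture, 24.8 FPKM in IL-1β and 47.5 FPKM in control libraries. The 5 that failed the filter reached at most 0.11 FPKM (Dpp4), 0.36 FPKM (Clec3b), 0.49 FPKM (Entpd1), 1.05 FPKM (Pi16) and 1.31 FPKM (Cd34) in any library, and of them Entpd1 was listed at 0 in a library. Of the 5 that passed the filter none rose and 1 (Sfrp2) fell with co-culture against IL-1β. That is a share of 20%, near the 22.0% of all tested genes called in this comparison. Of 7 macrophage markers, 5 passed the filter. The sums over all 7 were 19.1 to 21.4 FPKM in co-culture, 20.9 to 24.6 FPKM in IL-1β and 18.2 to 19.8 FPKM in control libraries. Of 6 endothelial markers only Egfl7 passed, and the sums over all 6 were 8.54 to 9.32 FPKM in co-culture, 8.79 to 9.28 FPKM in IL-1β and 10.01 to 11.2 FPKM in control libraries. The part of the muscle, fibroblast, macrophage and endothelial transcripts in the changes of the 9 genes was not tested.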

How the data were processed

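The authors deposited 1 table of FPKM values for 17588 genes in 9 libraries of poly(A)-selected RNA, per the file headers and the labels' protocols. Replicates were not pooled. Aligner, counter and annotation were not given in the sources used here. GRCm38, which is a mouse build, stands in the submitters' processing notes for these rat samples. Of the gene identifiers 16396 (93.2%), with all 9 members, were in a RefSeq table of rat GRCr8, and the build behind the values was not settled. Counts were not part of it. Steps among low values (9 to 19 genes a library) put the worth of 1 read at 0.974 to 1.1 relative to control replicate 1. Only ratios near 1 were kept for this, so a larger difference in depth could not have shown. Absolute depth is unknown, and no count test was run.

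Tests used limma 3.58.1 (R 4.3.3) with a mean-variance trend on log2(FPKM + 1), two-sided, on all 9 libraries, with Benjamini-Hochberg adjustment over the 11732 genes at 1 FPKM or more in at least 3 libraries. Folds are ratios of mean FPKM. The fit was run on simulated data with independent noise for each gene, with only the nearness of mean estimates to planted differences required. Such noise holds no shift of whole libraries and no limit was set on false calls, so the run does not bear on the p-values. Figures were drawn with matplotlib 3.10.9. The alternatives tried were other pseudocounts, filters and scalings, no trend, only the 6 libraries compared, a replicate block and leaving out each library.

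The members and gene lists were chosen with earlier results of these data known. All 9 members are named. Of each partner list, examples came from the 4 genes with the smallest p in a comparison, except the integrin chains named in the text. Like genes were the 3 with the highest r to a member.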

Additional observations from a re-analysis of the deposited data

How the results depend on the processing

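The differences of the 9 genes in the 3 comparisons were recomputed under 19 alternatives. Changing a setting kept direction and side of the threshold for 257 values, gained a call in 7, lost one in 3 and reversed 3. Leaving out a library kept 238, gained 3 calls and lost 2. Other filters, no trend, only the 6 libraries compared and a replicate block leave each difference as it is. There only the adjusted p could change, and the direction could not. Leaving out a library of the group outside a comparison also leaves its difference as it is. The tallies therefore overstate how far the direction was put to the test. The reversals were all for Tnn with co-culture against control (0.04 as deposited, not called), at -0.0283 with a common FPKM sum (limma adjusted p = 0.619), -0.00761 with median-of-ratios scaling (0.883) and -0.0245 with quantile normalization (0.642). The calls gained and lost were those of Postn, Vcan, Tnn and Fn1 given in the results, and the cause was not tested. The calls on Thbs1, Thbs2, Tnc and Sparc, and the rise of Vcan with IL-1β, held in all 19. Called members stayed at 7 to 8 with IL-1β against control, 5 to 6 with co-culture against IL-1β and 7 to 8 with co-culture against control. Over all genes 4355 to 5769, 1912 to 2627 and 3210 to 3981 were called. Whether the replicate numbers pair the libraries is not stated. Deviations from the group means had r of -0.09 to 0.09 across genes between same-numbered libraries. Between libraries of different number r was -0.08 to 0.09, and such values cannot show that the libraries were unpaired. With a replicate block 5201, 2266 and 3681 genes and 8, 5 and 7 members were called in these comparisons. Depth is unknown, so no counting error stands beside any FPKM value.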
